A study of Neurospora crassa OR74A with 26 samples.

Results

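Wild-type Neurospora crassa (strain FGSC 2489, listed under N. crassa OR74A) was compared 1 h after a change of medium: 3 libraries from cultures moved to Avicel against 3 libraries from cultures moved to fresh sucrose. These 6 libraries, of 26 in the series, were chosen by their labelled genotype, medium and time and by no measured value. Every culture had first grown for 16 h in sucrose from an inoculum of conidia, the asexual spores, and was washed before the change, so both groups share that growth and that wash. Avicel PH101 is microcrystalline cellulose, and each group is described as biological triplicates. For reference the text also gives 3 wild-type libraries on Avicel at 4 h and 3 on sucrose at that time, and single wild-type libraries on Avicel at 30 min and 2 h and without a carbon source at 1 h. Poly(A) RNA was sequenced, and the values are FPKM (fragments scaled to transcript length and, in a way not stated, between libraries) summed to genes. Log2 changes are differences, Avicel minus sucrose, between group means of log2(FPKM + 1), and adjusted p values are two-sided, from limma with Benjamini-Hochberg adjustment over 8629 tested genes. A gene is said to have risen or fallen where that adjusted p is under 0.05. The p values rest on the spread between replicate cultures, pooled over the 5 groups of 3 libraries in the series, those at 4 h included. A gene that scatters at 4 h can thus have a wide SE at 1 h.

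Neurospora crassa is a filamentous ascomycete that grows on burnt plant material. It takes up simple sugars first and, when they run out, makes secreted cellulases, transporters for the short glucose chains these release, and an intracellular beta-glucosidase that splits the chains to glucose. Loss of a preferred sugar in fungi also relieves carbon catabolite repression, opens the use of fats, acetate and reserve carbohydrates, and slows the making of ribosomes and amino acids.

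Recovered reads per library were 15.9 M, 59.8 M and 53.3 M on Avicel and 15.5 M, 59.8 M and 42.3 M on sucrose, where M stands for megareads. Read lengths, here and below inferred from the deposited coverage, were 36 bases for replicate 1 of either medium and 50 for the others. Pearson r of log2 values within the groups was 0.934 and 0.918 for pairs with replicate 1 and 0.987 for the other pair on Avicel, and 0.966, 0.966 and 0.992 on sucrose. Between 1146 and 1604 transcripts were at 0 on Avicel and between 1516 and 2183 on sucrose. In bulk RNA of this kind a change in the share of a cell type and a change in RNA per cell cannot be told apart.

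At 1 h 62.0% of the tested genes had changed. Higher on Avicel were 3221 genes (37.3%) and lower 2127 genes (24.6%), with 263 rises and 249 falls of at least 16-fold. At an unadjusted p under 0.05 the share was 65.7%. All 3 Avicel libraries lay above all 3 sucrose libraries for 40.0% of the tested genes and below them for 26.8%, so the groups stood apart for 66.8%. The median log2 change over all tested genes was 0.34, and it was 0.21 with libraries rescaled to the median gene ratio and 0.13 after quantile normalization. Calls higher on Avicel were 60.2% of all calls as deposited, 55.2% rescaled and 54.3% after quantile normalization. The gene lists below are therefore given beside these shares and medians. All lists were made with earlier results of these data known, so their shares describe the data and test nothing.

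**Figure D1:**
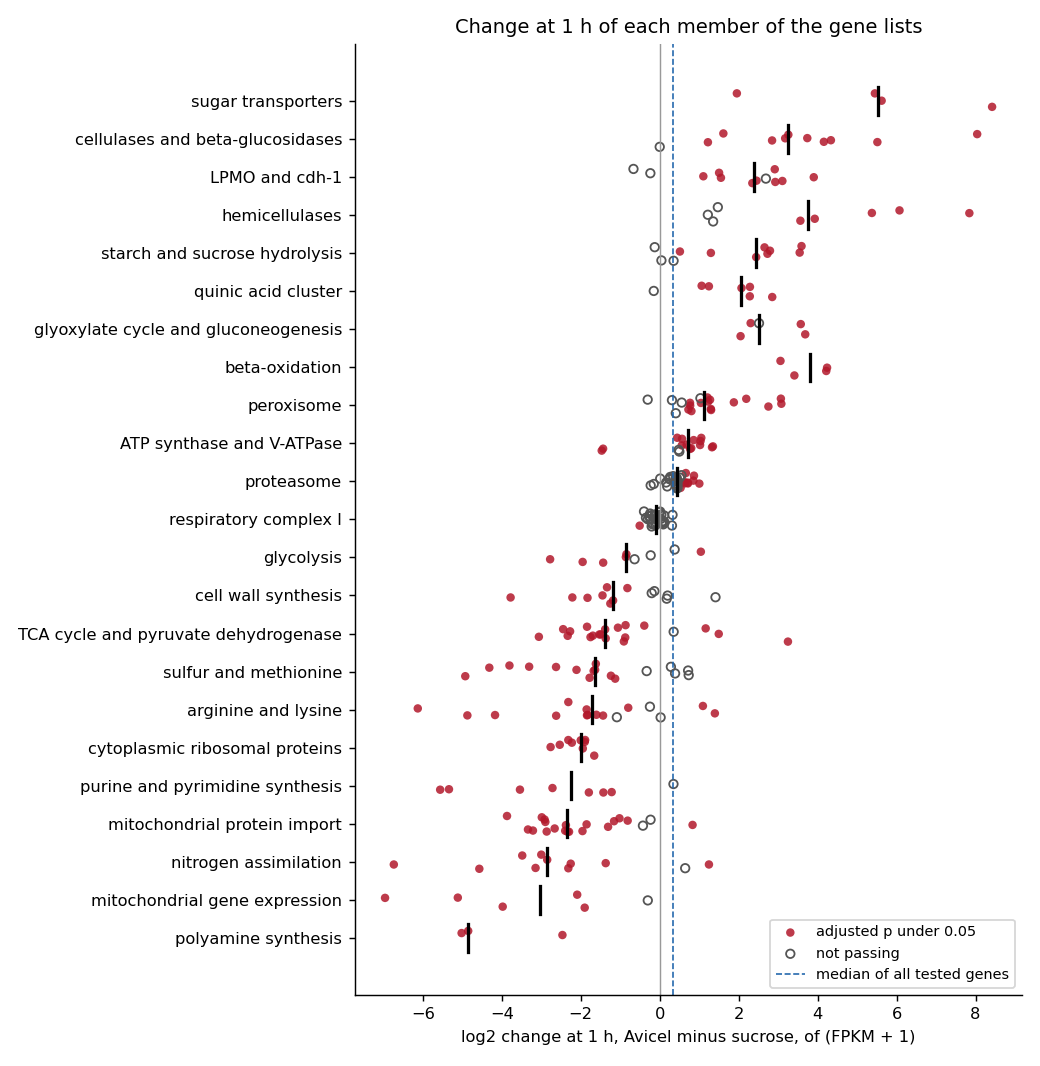
Log2 change at 1 h, Avicel minus sucrose, of log2(FPKM + 1) for each tested member of the gene lists (rows); filled red points have an adjusted p under 0.05, open points do not, black bars are list medians and the dashed line is the median of all tested genes, 0.34. The 4 sugar transporters lie to the right of 0 with a median of 5.54, and complex I lies close to 0 with a median of -0.09. Mitochondrial protein import and nitrogen assimilation lie to the left with medians of -2.34 and -2.85. All lists were made with earlier results of these data known, and beta-oxidation, mitochondrial gene expression and polyamine synthesis after their own values had been seen.

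Genes for taking up and splitting cellodextrins, the short glucose chains that come off cellulose, were already high at 1 h. The cellodextrin transporter gene cdt-1 stood at 1680, 2708 and 2334 FPKM in the Avicel libraries, against 58.2, 40.8 and 35 FPKM in the sucrose libraries (log2 change 5.62, SE 0.49, adjusted p = 5.4e-07). Its companion cdt-2, also a cellodextrin transporter, stood at 768, 3713 and 4097 FPKM on Avicel and at 6.52, 6.52 and 4.16 FPKM on sucrose (8.42, SE 0.68, adjusted p = 2.9e-07). The lowest Avicel library thus lay far above the highest sucrose library for both genes, although replicate 1 was the lowest of the Avicel libraries each time. The beta-glucosidase gene gh1-1 showed that split most clearly, with 143 FPKM in replicate 1 on Avicel but 5127 and 6376 FPKM in the other libraries, against 18.9, 53.5 and 44.6 FPKM on sucrose (5.51, SE 1.06, adjusted p = 0.0005). The groups did not overlap, and the mean on Avicel, 3882 ± 3298 FPKM (SD, n = 3), rests on replicates 2 and 3.

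Genes of cellulases and related enzymes rose too. Of 11 cellulase and beta-glucosidase genes, gh1-1 from above included, 10 were higher on Avicel and 1 did not pass. The share was 90.9% beside 37.3% of all tested genes, with a median log2 change of 3.26. The endoglucanase gene gh5-1 reached 23.9, 39.1 and 31.6 FPKM on Avicel and stood at 0, 2.96 and 0 FPKM on sucrose (4.34, SE 0.88, adjusted p = 7.6e-04). The cellobiohydrolase gene gh6-2 stood at 89.7, 67.1 and 62.6 FPKM on Avicel and at 64.3, 24.6 and 17.6 FPKM on sucrose, so the groups overlapped. Its rise of 1.22 (SE 0.43, adjusted p = 0.025) did not pass in 5 of 18 alternatives, with adjusted p of 0.078 without Avicel replicate 1, 0.082 without sucrose replicate 2 and 0.12 without sucrose replicate 3. Among 12 genes for lytic polysaccharide monooxygenases, which cut crystalline cellulose by oxidation, and for cellobiose dehydrogenase, which feeds them electrons, 9 were higher and 3 did not pass. The count of 9 was 5 when only genes above 0 in all 6 libraries were used. The dehydrogenase gene cdh-1 stood at 24.7, 26.5 and 19.9 FPKM on Avicel and at 8.38, 7.49 and 6.39 FPKM on sucrose (1.55, SE 0.29, adjusted p = 4.3e-04). Hemicellulase genes had 5 of 8 tested members higher and 3 not passing, or 3 higher among genes above 0 in all 6 libraries. The xylanase gene gh10-2 led them, with 84.9, 465 and 703 FPKM on Avicel and 0, 1.33 and 0 FPKM on sucrose (7.84, SE 1.14, adjusted p = 4.9e-05). The xylanase gene gh11-2 reached 22.1, 115 and 237 FPKM on Avicel and stood at 0, 1.09 and 0 FPKM on sucrose (6.07, SE 1.15, adjusted p = 4.4e-04). For both xylanase genes replicate 1 was again the lowest Avicel library. With 2 sucrose libraries at 0 their sizes rest on the pseudocount, and over the alternatives they ran from 4.93 to 10.3 for gh10-2 and from 3.27 to 8.73 for gh11-2, and likewise from 1.91 to 6.63 for gh5-1. The genes of pentose use rose, 3 of 3: xylose reductase xr by 3.0 (SE 0.67, adjusted p = 0.0016), the xylulokinase gene xyk-1 by 2.62 (SE 0.45, adjusted p = 1.9e-04) and xdh-1 by 1.92.

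Among the regulators of carbon use, 3 of 6 rose and 2 fell, with 1 not passing. These shares, 50% higher and 33.3% lower, stand beside 37.3% and 24.6% of all tested genes. The activator genes of cellulase and xylanase genes rose, clr-1 by 3.43, clr-2 by 5.08 and xlr-1 by 5.52 (SE 0.36, 0.35 and 0.29, adjusted p of 2.7e-06, 8.4e-08 and 1.5e-08), and vib-1 changed by -2.86 (SE 0.41, adjusted p = 4e-05); each passed in all 18 alternatives. The repressor gene cre-1, which acts in carbon catabolite repression, stood at 276, 94.3 and 48.9 FPKM on Avicel and at 522, 389 and 376 FPKM on sucrose (-1.96, SE 0.68, adjusted p = 0.023). No Avicel library of cre-1 reached a sucrose library, but the adjusted p was 0.062 without Avicel replicate 2, 0.11 without Avicel replicate 3 and 0.067 without sucrose replicate 1. The regulator col-26 stood at 175, 297 and 189 FPKM on Avicel and at 310, 266 and 246 FPKM on sucrose (-0.35, SE 0.48, adjusted p = 0.55), and its groups overlapped.

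Genes for other carbon sources were high at the same time. For comparison, 37.3% of all tested genes were higher, with a median of 0.34. List medians were 2.44 for starch and sucrose hydrolysis, 2.07 for the quinic acid cluster, 1.6 for reserve carbohydrates and 1.64 for chitinases. Of 11 genes for starch and sucrose hydrolysis 8 were higher and 3 did not pass. The invertase gene inv, whose enzyme splits sucrose, stood at 25382, 27798 and 16390 FPKM on Avicel and at 861, 3103 and 2718 FPKM on sucrose (3.54, SE 0.85, adjusted p = 0.0027). The glucoamylase gene gla-1, for the release of glucose from starch, stood at 10874, 10878 and 5791 FPKM on Avicel and at 463, 1031 and 816 FPKM on sucrose (3.59, SE 0.51, adjusted p = 4.1e-05). Neither gene had overlapping groups. In the quinic acid cluster, whose enzymes degrade quinate, 6 of 7 genes were higher and 1 did not pass. Its activator gene qa-1F averaged 90.8 ± 24.8 FPKM on Avicel and 17.4 ± 0.957 FPKM on sucrose (SD, n = 3 each; 2.28, SE 0.26, adjusted p = 4.8e-06), and the catabolic dehydroquinase gene qa-2 averaged 91.4 ± 18.3 and 18 ± 3.86 FPKM (2.29, SE 0.37, adjusted p = 1.4e-04). Genes of reserve carbohydrates had 3 of 5 higher and 2 not passing. The trehalase gene tre-1, whose enzyme splits the reserve sugar trehalose, stood at 251, 2682 and 2212 FPKM on Avicel and at 27.4, 40.9 and 43.6 FPKM on sucrose (4.93, SE 0.76, adjusted p = 8.1e-05). The glycogenin gene gnn, which primes glycogen, stood at 7635, 2362 and 1857 FPKM on Avicel and at 675, 798 and 720 FPKM on sucrose (2.14, SE 0.40, adjusted p = 4.1e-04). Replicate 1 on Avicel was the lowest Avicel library for tre-1 and the highest for gnn. Of 7 tested chitinase genes, for enzymes that cut cell wall chitin, 6 were higher, but 3 after quantile normalization, without Avicel replicate 1 or without sucrose replicate 3; gh18-5 averaged 982 ± 78.8 FPKM on Avicel and 261 ± 104 FPKM on sucrose (2.0, SE 0.41, adjusted p = 9.1e-04).

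Genes for burning fatty acids and using acetyl units rose together with those of the peroxisome, the organelle that houses much of this work in filamentous fungi. Of 20 peroxin genes, which build the organelle and import its enzymes, 15 were higher and 5 did not pass, a share of 75% beside 37.3% of all tested genes, with a median of 1.13. The gene pex11, for a peroxin of peroxisome division, stood at 1814, 1624 and 2207 FPKM on Avicel and at 191, 237 and 235 FPKM on sucrose (3.08, SE 0.22, adjusted p = 1.2e-07). The import receptor gene pex7 rose by 2.19 (SE 0.19, adjusted p = 4.7e-07) and its partner pex20 by 3.07 (SE 0.39, adjusted p = 1.5e-05). The receptor gene pex5 averaged 981 ± 396 FPKM on Avicel and 404 ± 46.0 FPKM on sucrose (1.21, SE 0.23, adjusted p = 5e-04). With the replicate number as a block, pex6, pex8, pex13 and pex14 no longer passed (adjusted p of 0.096, 0.05, 0.08 and 0.1). Single libraries decided 3 of them: pex6 and pex8 did not pass without Avicel replicate 1 (0.056 and 0.061), nor pex14 without sucrose replicate 1 (0.051). The genes of beta-oxidation, which shortens fatty acids, were listed after their values had been seen. The multifunctional beta-oxidation gene fox-2 stood at 10840, 5288 and 3549 FPKM on Avicel and at 280, 358 and 312 FPKM on sucrose (4.22, SE 0.36, adjusted p = 4.3e-07). The acyl-CoA dehydrogenase genes acd-1, acd-2 and acd-3, for the entry step, rose by 4.24, 3.41 and 3.06. All 3 libraries on Avicel lay above all 3 on sucrose for each of these 4 genes. Of 5 genes of the glyoxylate cycle and gluconeogenesis, which turn acetyl units into sugar, 4 were higher and 1 did not pass. The acetyl-CoA synthetase gene acu-5 stood at 2538, 2073 and 1615 FPKM on Avicel and at 542, 472 and 467 FPKM on sucrose (2.05, SE 0.22, adjusted p = 3.1e-06). The isocitrate lyase gene acu-3, for the first step that is the cycle's own, stood at 7567, 2469 and 1477 FPKM on Avicel and at 1166, 137 and 101 FPKM on sucrose (3.57, SE 0.78, adjusted p = 0.0013). The groups of both genes stayed apart, with replicate 1 the highest of its group in each medium. The acu-6 gene, for phosphoenolpyruvate carboxykinase, stood at 1656, 1020 and 401 FPKM on Avicel and at 180, 159 and 125 FPKM on sucrose, a change of 2.52 with SE 1.39 that did not pass (adjusted p = 0.13). With the replicate block on the 6 libraries it passed (adjusted p = 0.0075), as it did with these libraries alone (adjusted p = 0.0092).

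Genes for building nitrogen into glutamate and glutamine fell, while the gene for taking it off glutamate rose. The gene am, for the NADP-dependent glutamate dehydrogenase that makes glutamate from ammonium, stood at 37.7, 277 and 189 FPKM on Avicel and at 15643, 12880 and 12274 FPKM on sucrose (-6.74, SE 0.51, adjusted p = 1.7e-07). The gene gdh-1, for the NAD-dependent glutamate dehydrogenase that breaks glutamate down, stood at 32138, 16175 and 10486 FPKM on Avicel and at 198, 318 and 329 FPKM on sucrose (6.00, SE 0.52, adjusted p = 5.1e-07); it was picked after its values had been seen. The groups were far apart for both genes, in opposite directions. Of 11 genes of nitrogen assimilation 9 were lower, 1 higher and 1 did not pass, a share of 81.8% beside 24.6% of all tested genes lower, with a median of -2.85. Glutamine synthetase gln-1 stood at 650, 1546 and 1345 FPKM on Avicel and at 10111, 9031 and 7606 FPKM on sucrose (-3.0, SE 0.37, adjusted p = 1.2e-05). The nitrate reductase gene nit-3 fell by 4.57 on the log2 scale (SE 0.48, adjusted p = 2.6e-06), and its GATA-type activator nit-2 fell by 2.31 (SE 0.23, adjusted p = 1.7e-06). The 1 member that rose was nmr, a repressor that acts on NIT2, at 548, 413 and 250 FPKM on Avicel and 221, 153 and 124 FPKM on sucrose (1.25, SE 0.36, adjusted p = 0.0084).

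**Figure D2:**
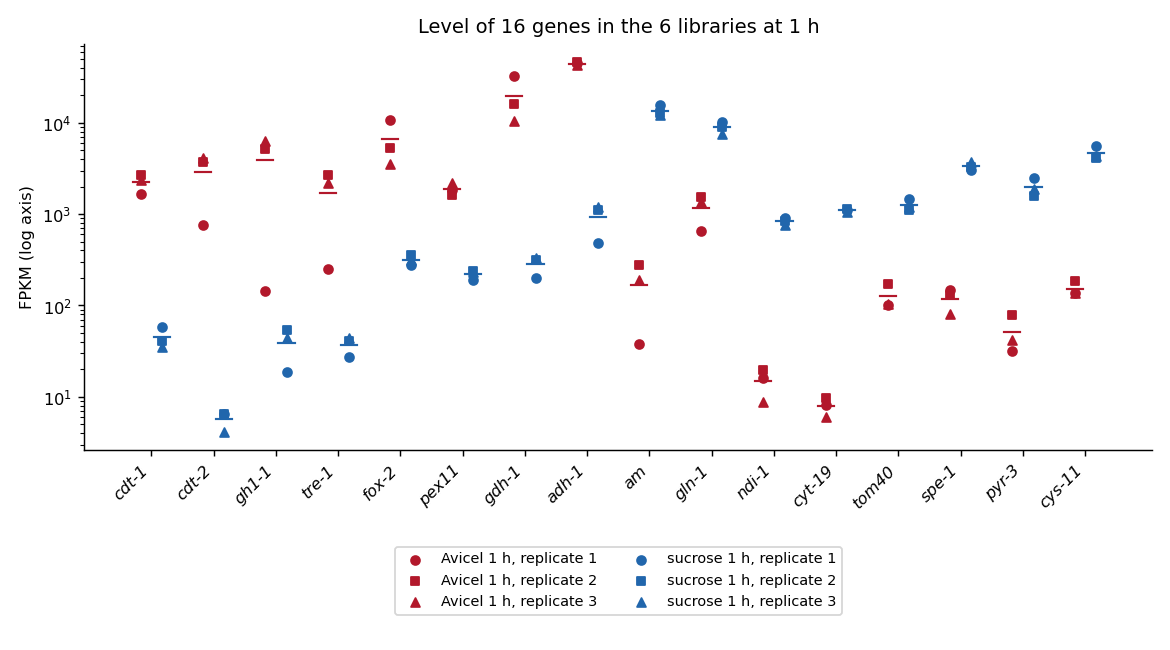
FPKM on a log axis of 16 genes in the 6 libraries at 1 h, Avicel (red) left of sucrose (blue) for each gene; marker shapes are replicates 1 to 3 and short bars are means (n = 3). The groups of each gene stand apart, and replicate 1 is the lowest Avicel library for gh1-1 (143 FPKM), tre-1 (251 FPKM) and am (37.7 FPKM).

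Genes of amino acid, sulfur and nucleotide synthesis fell, to different depths. Over all tested genes 24.6% were lower and the median was 0.34. List medians were -1.64 for sulfur and methionine and -1.72 for arginine and lysine. They were -0.97 for branched-chain amino acids and -0.86 for aromatic amino acids and histidine. Of 8 genes of purine and pyrimidine synthesis 7 were lower and 1 did not pass (median -2.26). The gene pyr-3, for the enzyme that starts pyrimidine synthesis, stood at 32.0, 78.5 and 41.4 FPKM on Avicel and at 2490, 1581 and 1863 FPKM on sucrose (-5.34, SE 0.52, adjusted p = 1.4e-06). Of 17 genes of sulfur use and methionine synthesis 12 were lower and 5 did not pass. The ATP sulfurylase gene cys-11, for sulfate activation, stood at 139, 184 and 136 FPKM on Avicel and at 5543, 4145 and 4331 FPKM on sucrose (-4.92, SE 0.39, adjusted p = 2.5e-07). The sulfate permease gene cys-14 fell by 4.32 (SE 0.62, adjusted p = 4.3e-05), and the S-adenosylmethionine synthetase gene eth-1 by 3.31 (SE 0.44, adjusted p = 2.4e-05). No Avicel library reached a sucrose library for any of these genes. Among 16 genes of arginine and lysine synthesis 11 were lower, 2 higher and 3 did not pass, with 7 lower without Avicel replicate 3 or without sucrose replicate 1. The gene arg-3, for the large subunit of the arginine-specific carbamoyl phosphate synthetase, stood at 27.8, 20.3 and 6.85 FPKM on Avicel and at 3734, 634 and 693 FPKM on sucrose (-6.13, SE 0.67, adjusted p = 4e-06). Its sucrose libraries themselves differ, replicate 1 being the highest. The members that rose were arg-14 (1.40, SE 0.22, adjusted p = 1e-04) and arg-15 (1.09). Of 9 genes for branched-chain amino acids 7 were lower and 2 did not pass, or 4 lower without Avicel replicate 3 and 4 with only the 6 libraries fitted. The ketol-acid reductoisomerase gene ilv-2 stood at 860, 1016 and 447 FPKM on Avicel and at 15228, 7427 and 6413 FPKM on sucrose (-3.62, SE 0.43, adjusted p = 9.1e-06). Of 13 genes for aromatic amino acids and histidine 7 were lower and 6 did not pass, or 4 lower with only the 6 libraries fitted. The 3 genes of polyamine synthesis, listed after their values had been seen, fell. The ornithine decarboxylase gene spe-1, the entry to that pathway, stood at 146, 129 and 80.8 FPKM on Avicel and at 3055, 3316 and 3713 FPKM on sucrose (-4.85, SE 0.36, adjusted p = 1.4e-07). The falls were -5.02 for spe-2 and -2.46 for spe-3.

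Of 9 genes for cytoplasmic ribosomal proteins 9 were lower, beside 24.6% of all tested genes, with log2 changes from -2.76 to -1.66. After quantile normalization 5 were still lower. The crp-15 gene stood at 3060, 5143 and 2568 FPKM on Avicel and at 25814, 23754 and 20666 FPKM on sucrose (-2.76, SE 0.55, adjusted p = 6.2e-04). The translation elongation factor gene tef-1 stood at 61672, 69836 and 51834 FPKM on Avicel and at 134826, 103967 and 127335 FPKM on sucrose; its change of -1.0 (SE 0.40, adjusted p = 0.044) failed to pass in 11 of 18 alternatives, the block among them. Of 3 translation factor genes 3 were lower as deposited and 0 after quantile normalization. Genes for the proteasome, which degrades ubiquitin-tagged proteins, lay close to the background: of 29 genes 9 were higher (31% beside 37.3% of all tested genes) and 20 did not pass, with a median of 0.44 beside 0.34. That count ran from 1 with the 6 libraries alone to 18 without Avicel replicate 1, and was 15 with the replicate block. It was 3 without Avicel replicate 2, 2 without Avicel replicate 3 and 2 without sucrose replicate 1. The polyubiquitin gene ubi, picked after its values had been seen, stood at 15796, 10958 and 15464 FPKM on Avicel and at 1651, 1143 and 1542 FPKM on sucrose (3.28, SE 0.48, adjusted p = 5e-05).

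Mitochondrial genes did not move as a block. Of 21 genes of the import machinery, which brings nuclear-encoded proteins into the organelle, 18 were lower, 1 higher and 2 did not pass, a share of 85.7% beside 24.6%, with a median of -2.34. The outer membrane pore gene tom40 stood at 102, 170 and 105 FPKM on Avicel and at 1450, 1118 and 1181 FPKM on sucrose (-3.34, SE 0.24, adjusted p = 9.6e-08). The inner membrane channel gene tim23 stood at 113, 99.3 and 79.6 FPKM on Avicel and at 833, 713 and 640 FPKM on sucrose (-2.90, SE 0.20, adjusted p = 7.6e-08). The receptor gene tom20 fell by 3.21 (SE 0.31, adjusted p = 1.4e-06) and hsp60, for the chaperonin that folds imported proteins, by 3.12 (SE 0.26, adjusted p = 3.3e-07). Of 6 genes for mitochondrial RNA and protein synthesis, listed after their values had been seen, 5 were lower and 1 did not pass. The gene cyt-19, for a DEAD-box RNA helicase of intron splicing, stood at 8.22, 9.81 and 5.97 FPKM on Avicel and at 1108, 1126 and 1064 FPKM on sucrose (-6.96, SE 0.34, adjusted p = 9.2e-09). The mitochondrial RNA polymerase gene cyt-5 fell by 5.11 (SE 0.36, adjusted p = 9.3e-08), and cyt-18, for the tyrosyl-tRNA synthetase that also splices introns, changed by -3.98 (SE 0.21, adjusted p = 1.4e-08). Of 20 genes for the tricarboxylic acid cycle and pyruvate dehydrogenase 16 were lower, 3 higher and 1 did not pass. The share lower was 80% beside 24.6%, with a median of -1.38. The pyruvate dehydrogenase complex gene ace-3 stood at 474, 644 and 359 FPKM on Avicel and at 4518, 3877 and 3658 FPKM on sucrose (-3.06, SE 0.26, adjusted p = 4.1e-07). The 3 that rose were tca-2 (3.25, SE 0.33, adjusted p = 2e-06), tca-14 (1.5, SE 0.34, adjusted p = 0.0019) and tca-16 (1.16, SE 0.21, adjusted p = 2.6e-04).

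Respiratory chain genes differed in their response. The shares over all tested genes were 37.3% higher and 24.6% lower, with a median of 0.34. Of 29 genes of complex I, the proton-pumping NADH dehydrogenase, 28 did not pass, with a median of -0.09 and a range of -0.51 to 0.32. The nuo40 gene stood at 2128, 2592 and 2713 FPKM on Avicel and at 2274, 2584 and 2781 FPKM on sucrose, a difference of -0.04 with SE 0.16 (adjusted p = 0.84). The 1 called member, nuo14 (-0.51, SE 0.20, adjusted p = 0.038), did not pass in 6 of 18 alternatives, and the count ran from 0 to 6, the highest value with libraries rescaled; it was 4 without sucrose replicate 1 and 0 without Avicel replicate 1, sucrose replicate 2 or sucrose replicate 3. By contrast ndi-1, for the internal NADH dehydrogenase that bypasses complex I without pumping, stood at 15.9, 19.5 and 8.87 FPKM on Avicel and at 906, 833 and 765 FPKM on sucrose (-5.79, SE 0.45, adjusted p = 2.2e-07). Of 7 cytochrome and associated genes of the chain, listed after their values had been seen, 6 were lower and 1 did not pass (median -1.34). The member that did not pass was cyt-1 (0.03, SE 0.18, adjusted p = 0.9), beside falls of -1.79 for the iron-sulfur protein gene fes-1, -1.34 for qcr7 and -1.47 for qcr8. The cytochrome c gene cyc-1 stood at 1568, 326 and 318 FPKM on Avicel and at 8616, 12764 and 13653 FPKM on sucrose (-4.39, SE 0.67, adjusted p = 7.3e-05). Of 16 genes of the mitochondrial ATP synthase and the vacuolar proton pump, 12 were higher and 2 lower, with 2 not passing. The 2 lower were the ATP synthase genes atp-1 (-1.47, SE 0.25, adjusted p = 1.6e-04) and atp-2 (-1.43), which did not pass after quantile normalization (adjusted p = 0.62 and 0.42). The 12 higher were vacuolar pump genes, with rises up to 1.35, among them vma-8 (1.32, SE 0.20, adjusted p = 5.8e-05) and vma-1 (0.80, SE 0.22, adjusted p = 0.0056). The median of the 16 genes was 0.73, and 0.59 with libraries rescaled. The rise of vma-3 did not pass in 7 of 18 alternatives, that of vph-1 in 4 and that of vma-11 in 2. Those of vma-2 and vma-13 did not pass in 1 each, and the other rises passed in all 18. The plasma membrane proton pump gene pma-1, picked after its values had been seen, stood at 1130, 5313 and 3598 FPKM on Avicel and at 29912, 27193 and 31596 FPKM on sucrose (-3.41, SE 0.44, adjusted p = 1.7e-05).

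Genes for building wall and membrane fell in part. Of 13 genes of cell wall synthesis 8 were lower and 5 did not pass. The share lower was 61.5% beside 24.6% of all tested genes, with a median of -1.18. The chitin synthase gene chs-5 stood at 113, 226 and 138 FPKM on Avicel and at 381, 585 and 721 FPKM on sucrose (-1.83, SE 0.28, adjusted p = 8.4e-05). The glucanosyltransferase gene gel-5, for remodelling of beta-1,3-glucan, stood at 4.40, 19.4 and 9.73 FPKM on Avicel and at 111, 157 and 172 FPKM on sucrose (-3.78, SE 0.45, adjusted p = 9.2e-06). The fatty acid synthase genes cel-1 and cel-2 changed by -3.34 and -4.13 (SE 0.45 and 0.43, adjusted p of 2.7e-05 and 2.3e-06). All Avicel libraries of these 4 genes lay below all sucrose libraries. Of 9 glycolysis genes 5 were lower (55.6% beside 24.6%), 1 higher and 3 did not pass, with a median of -0.84. After quantile normalization 3 were lower.

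Single genes outside these groups moved by large amounts. The catalase gene cat-3 stood at 37.3, 48.3 and 46.4 FPKM on Avicel and at 1289, 1782 and 1740 FPKM on sucrose (-5.15, SE 0.38, adjusted p = 1.4e-07), whereas the catalase-peroxidase gene cat-2 averaged 418 ± 148 and 77.4 ± 27.0 FPKM (2.41, SE 0.43, adjusted p = 2.5e-04). The alcohol dehydrogenase gene adh-1 stood at 45028, 45713 and 42434 FPKM on Avicel and at 484, 1103 and 1207 FPKM on sucrose (5.68, SE 1.00, adjusted p = 2.5e-04). The formate dehydrogenase gene fdh stood at 39662, 3975 and 2939 FPKM on Avicel and at 26.7, 68.1 and 42.2 FPKM on sucrose (7.47, SE 0.70, adjusted p = 1e-06). The groups are apart for each of them, with replicate 1 far above the other Avicel libraries for fdh alone. Light, clock and carotenoid genes had 7 of 18 members higher, 3 lower and 8 not passing, near the background of 37.3% and 24.6%, and 4 were higher without Avicel replicate 3. The largest of these changes were a rise of 5.44 (SE 0.50, adjusted p = 8.7e-07) for the opsin gene nop-1 and a fall of 4.33 (SE 0.45, adjusted p = 2.4e-06) for frh, whose RNA helicase partners the clock protein FRQ. The genes adh-1, fdh, frh and nop-1 were picked after their values had been seen.

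Markers of conidia were followed because they are the other cell type such a culture can hold. Of 10 listed marker names 8 were found by symbol, all but con-8 and ccg-2. A name that was not found does not mean a gene without reads. Synonyms were not looked up, so such a name can belong to a gene held under another symbol, also one of the 8, and the 10 names need not be 10 genes. The 8 found include the carotenoid genes al-1, al-2 and al-3, which are also in the light, clock and carotenoid list. Of these 8 markers, 6 were higher on Avicel and 2 (al-2 and eas) did not pass, beside 37.3% of all tested genes higher. The rise of al-1 by 1.66 (adjusted p = 0.045) did not pass in 9 of 18 alternatives. Their summed level was 9008, 24541 and 28685 FPKM on Avicel and 2173, 6079 and 5635 FPKM on sucrose, most of it from the glucose-repressible gene ccg-1. On sucrose con-13 was at 0 in all libraries, and con-6, con-10 and the hydrophobin gene eas were also at 0 in replicate 1; on Avicel no marker was at 0. The con-10 gene stood at 41.2, 303 and 551 FPKM on Avicel and at 0, 18 and 13.5 FPKM on sucrose (4.88, SE 1.16, adjusted p = 0.0025), while eas, the surface protein of conidia, stood at 26.2, 36.7 and 29.4 FPKM on Avicel and at 0, 157 and 126 FPKM on sucrose. The change of eas was 0.21 (adjusted p = 0.91); its groups overlapped only through sucrose replicate 1, and without it the change was -2.17 (adjusted p = 0.011). The rise of con-6 by 2.98 (adjusted p = 0.014) did not pass in 6 of 18 alternatives, the block among them (adjusted p = 0.051), and that of ccg-1 by 2.28 (adjusted p = 0.013) did not pass without Avicel replicate 3 (0.056) or without sucrose replicate 1 (0.066). The wider conidiation list had 5 of 18 members higher, 2 lower and 11 not passing. These shares, 27.8% higher and 11.1% lower, lay under the 37.3% and 24.6% of all tested genes. The 5 higher were 3 without sucrose replicate 1 and 2 among genes above 0 in all 6 libraries. The 2 lower were 1 without Avicel replicate 2, Avicel replicate 3 or sucrose replicate 2. The part of such cells in the other changes was not tested.

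Symbols are known for 1093 of 9733 genes, and no role is given for the others. Of the 15 largest rises 3 have a symbol (cdt-2, gh3-3 and gh10-2). NCU05498 stood at 16718, 16074 and 22045 FPKM on Avicel and at 13.3, 128 and 108 FPKM on sucrose (8.27, SE 1.14, adjusted p = 3.1e-05). NCU04914 and NCU08491 were listed at 0 in all 3 sucrose libraries and stood at 1758, 705 and 749 FPKM and at 194, 347 and 526 FPKM on Avicel. Of the 15 largest falls 1 has a symbol, fkr-4, at 2.96, 11.3 and 9.33 FPKM on Avicel and 1920, 1664 and 1700 FPKM on sucrose (-7.79, SE 0.63, adjusted p = 2.9e-07). NCU03396 stood at 5.23, 10.8 and 7.89 FPKM on Avicel and at 2121, 2761 and 2879 FPKM on sucrose (-8.21, SE 0.51, adjusted p = 4.7e-08). The largest falls include pairs that lie next to each other on the assembly of the files: NCU05651, at 0 in all 3 Avicel libraries and at 471, 429 and 392 FPKM on sucrose, ends at base 1202251 of supercontig 10.6, and NCU05650, at 2.03, 3.51 and 1.95 FPKM on Avicel and 1460, 1224 and 1540 FPKM on sucrose, starts at base 1202386. NCU00336 and NCU00337 lie likewise on supercontig 10.3, from base 3490822 to 3496243 and from 3496975 to 3499120, with changes of -8.06 and -8.08. NCU00336 was at 0 in 1 and NCU00337 in 2 of the Avicel libraries, and over the alternatives these changes ran from -9.82 to -5.28 and from -11.4 to -5.03.

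The change at 1 h was next set against the change at 4 h, as the difference of the 2 responses. That difference passed for 2684 genes (31.1%), with the 1 h response the higher in 1406 (16.3%) and the lower in 1278 (14.8%). With replicate 1 of both media left out at 1 h and 4 h it passed for 4019 genes, 2040 higher and 1979 lower. Of the genes higher at 1 h, 2073 were also higher at 4 h, 1003 did not pass there and 145 were lower. Of the genes lower at 1 h, 1391 were also lower at 4 h, 648 did not pass and 88 were higher. At 4 h 34.3% of the tested genes were higher and 24.2% lower, and the median log2 change over all of them was 0.34 at 1 h and 0.24 at 4 h.

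Peroxin genes responded more at 1 h: the 1 h response was the higher for 13 of 20, with medians of 1.13 at 1 h and -0.10 at 4 h. The gene pex19, for the chaperone of peroxisomal membrane proteins, stood at 1474, 986 and 938 FPKM on Avicel and at 204, 140 and 154 FPKM on sucrose at 1 h. At 4 h it stood at 139, 163 and 170 FPKM on Avicel and at 464, 583 and 527 FPKM on sucrose, so that it was higher on Avicel at 1 h and lower on it at 4 h (difference of the responses 4.48, SE 0.30, adjusted p = 9.3e-07). The acetyl-CoA synthetase gene acu-5 was likewise higher at 1 h and lower at 4 h, with 2.05 at 1 h and -1.96 at 4 h (difference 4.01, SE 0.31, adjusted p = 3.4e-06) and so was the acetyl-CoA hydrolase gene acu-8, picked after its values had been seen, with 2.02 and -1.48 (difference 3.50, SE 0.40, adjusted p = 6e-05). In the list of the glyoxylate cycle and gluconeogenesis 2 of 5 genes had the higher response at 1 h, and at 4 h 2 were higher, 1 lower and 2 not passing. For acu-5 the 4 h levels were 483, 341 and 345 FPKM on Avicel and 1809, 1356 and 1362 FPKM on sucrose. Among the genes picked by the size of the difference, NCU11944 stood at 526, 347 and 384 FPKM on Avicel at 1 h, and its 4 h libraries on Avicel gave 47.6, 52.0 and 44.1 FPKM.

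Cell wall and nitrogen genes were low early and less so later. In cell wall synthesis the 1 h response was the lower for 7 of 13 genes, with medians of -1.18 at 1 h and 0.04 at 4 h. The gene chs-5 stood at 563, 374 and 366 FPKM on Avicel and at 314, 235 and 257 FPKM on sucrose at 4 h, the reverse of its order at 1 h (difference -2.50, SE 0.40, adjusted p = 6.1e-04). In nitrogen assimilation the 1 h response was the lower for 5 of 11, with medians of -2.85 and -1.19. The gene am was back at 3958, 2900 and 4099 FPKM on Avicel at 4 h, still below 14824, 18741 and 18475 FPKM on sucrose (difference -4.48, SE 0.72, adjusted p = 6.6e-04), and cat-3, spe-1, spe-2 and cyt-19 also had the deeper fall at 1 h (differences of -3.48, -1.99, -2.44 and -2.78).

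In some other groups the change at 4 h was the lower of the 2, and in others it was higher or alike. For branched-chain amino acids the 1 h response was the higher, that is the fall was smaller, in 7 of 9 genes, with medians of -0.97 at 1 h and -4.29 at 4 h. The gene ilv-2 stood at 235, 78.0 and 83.7 FPKM on Avicel and at 12406, 16204 and 19370 FPKM on sucrose at 4 h (difference 3.46, SE 0.61, adjusted p = 0.0013). For aromatic amino acids and histidine it was 9 of 13 (medians -0.86 and -2.14), and for cytoplasmic ribosomal proteins 5 of 9 (-2.0 and -4.1). The proteasome, with no called fall at 1 h, had 13 of 29 genes with the higher response at 1 h and 11 lower at 4 h (medians 0.44 and -0.56). The cellulase and beta-glucosidase list had a median of 3.26 at 1 h and 10.18 at 4 h, and the 1 h response was the lower in 9 of 11. Import machinery had medians of -2.34 at 1 h and -2.21 at 4 h, with the 1 h response the higher in 4 of 21 genes and the lower in 1, and complex I had medians of -0.09 and -0.07.

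**Figure D3:**
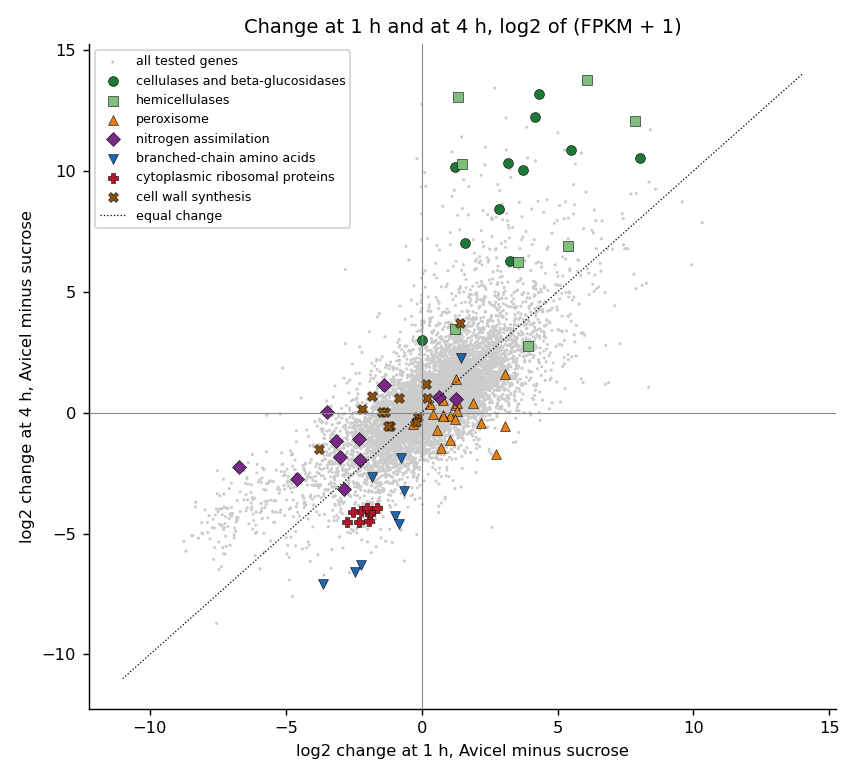
Log2 change, Avicel minus sucrose, of every tested gene at 1 h (x axis) and at 4 h (y axis), with members of 7 gene lists in colour; the dotted line marks equal change. Cellulases (median 3.26 at 1 h and 10.18 at 4 h) lie above the line, peroxins (1.13 and -0.10) below it, and branched-chain amino acid genes (-0.97 and -4.29) below it on the left.

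The single libraries place the 1 h values in a course, with no test. On Avicel the 30 min library gave 467 FPKM for cdt-2, the 1 h libraries averaged 2860 FPKM, the 2 h library gave 20752 FPKM and the 4 h libraries averaged 56480 FPKM. The gene inv ran the other way, with 37066 FPKM at 30 min and 23190 FPKM on average at 1 h. Its 2 h library gave 6445 FPKM, and the 4 h libraries gave 5334, 653 and 273 FPKM. The level of am was 123 FPKM at 30 min and 41.2 FPKM at 2 h, so the fall from the sucrose range was present at the earliest time. The 30 min and 2 h libraries have reads of 36 bases, like replicate 1 of the groups at 1 h.

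**Figure D4:**
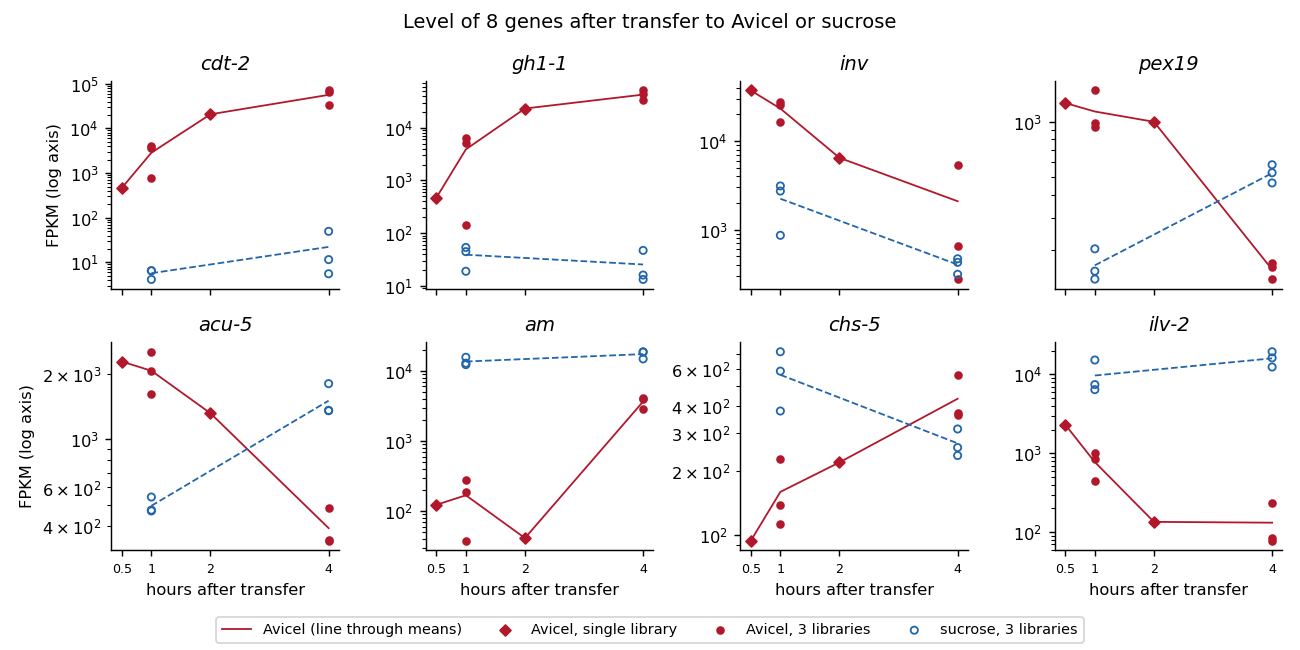
FPKM on a log axis against hours after transfer for 8 genes; red is Avicel (diamonds single libraries, dots 3 libraries, line through means) and open blue circles are sucrose (3 libraries each at 1 h and 4 h). The genes cdt-2 and gh1-1 climb through 4 h, inv is highest at 30 min (37066 FPKM), pex19 and acu-5 lie above sucrose at 1 h and below it at 4 h, and am lies below its sucrose libraries at 1 h and 4 h, with 41.2 FPKM on Avicel at 2 h.

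Avicel cultures at 1 h had also lost sucrose, and the single no-carbon library at 1 h shows the level of the same genes without cellulose. For many genes it stood close to or beyond the Avicel libraries. The no-carbon value was 28491 FPKM for gdh-1, 28.1 FPKM for am, 3859 FPKM for pex11, 14148 FPKM for fox-2, 6.06 FPKM for cyt-19 and 9.72 FPKM for pyr-3. Each of these lay on the Avicel side of all 3 sucrose libraries. The genes whose no-carbon value lay below every Avicel library but above every sucrose library include cdt-1 (451 FPKM), cdt-2 (317 FPKM), inv (5698 FPKM), acu-5 (595 FPKM) and gh5-1 (19.2 FPKM). The dehydrogenase gene cdh-1, at 61.6 FPKM without carbon, lay above every Avicel library. The hemicellulase genes gh2-1 (252 FPKM) and gh2-3 (372 FPKM) lay within the range of the Avicel libraries and above every sucrose library. For gh1-1 (343 FPKM), xr (91.5 FPKM), gh10-2 (87.6 FPKM) and tre-1 (277 FPKM) the no-carbon value lay above every sucrose library and within the range of the Avicel libraries or just under it, since Avicel replicate 1 was low for these genes. These genes were chosen after their values had been seen, the no-carbon library has reads of 51 bases, and 1 library gives no spread.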

How the data were processed

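Poly(A) RNA of wild-type cultures was sequenced. The authors deposited, per transcript, FPKM, the coverage signal and transcript length, made with TopHat and Cufflinks 0.9.3 per the submitters' processing notes; the genome build is not given in the sources used here. How FPKM was scaled between libraries is likewise not given. FPKM was summed over transcripts to 9733 genes (9907 transcripts, 164 genes with more than 1). Reads were recovered from the deposited coverage signal, transcript length and an inferred read length. For each library the read length was the one that gave the largest share of whole read numbers. With it 87.6% to 92.8% of values under 200 reads came out whole within 0.02 in the wild-type libraries used. Because the choice maximized that share, it is no separate check of the read lengths.

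Values were taken as log2(FPKM + 1), genes averaging under 1 FPKM across the 26 libraries were left out, and limma 3.58.1 (R 4.3.3, trended prior, two-sided) fitted 16 group means. The 5 groups of 3 libraries give the spread, with 10 residual degrees of freedom. The procedure was checked on simulated data. Symbols come from the RefSeq gene table, which matched 8914 genes, 1093 with a symbol. The members and lists were chosen with earlier results of these data known.

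Named genes are, among called genes whose groups do not overlap and whose higher mean reaches 10 FPKM, the 15 that rose most and the 15 that fell most; further the 6 largest differences of responses either way, the up to 6 most abundant members of each list, and all regulators. The lists of beta-oxidation, mitochondrial gene expression, respiratory chain cytochromes and polyamine synthesis were made after their values were seen. Named outside that rule, after their values were seen, are pex6, pex7, pex8, pex20, cdh-1, gh5-1, tim23, hsp60, gdh-1, pma-1, adh-1, fdh, ubi, tca-2, ace-3, arg-3, arg-14, arg-15, nmr, cys-14, gel-5, con-6, con-10, con-13, eas, vma-8, nuo14, cyt-1, acu-8, frh and nop-1.

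Same-numbered Avicel and sucrose libraries deviated together at 1 h, with correlations of 0.28, 0.18 and 0.24 for replicates 1 to 3. Replicates 2 and 3 crossed gave 0.17 and 0.19, and replicate 1 crossed with 2 or 3 gave -0.26 to -0.21. The split is thus mainly of replicate 1 from the others, and a pairing of replicates 2 and 3 by number hardly shows. The p values given come from the fit without a block, and the block is an alternative, printed where it changes a call. The alternatives were other pseudocounts, filters, scalings and priors, voom on recovered reads, the replicate block and the 6 libraries alone. Others left out each library in turn, or replicate 1 of both media together. That last fit dropped the 36-base replicate 1 libraries at 1 h, and for the difference of responses also the 40-base ones at 4 h. The remaining libraries of the series, of which not all have 50-base reads, stayed in it. After the data were seen, a fit on genes above 0 in all 6 libraries was added.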

Additional observations from a re-analysis of the deposited data

Results flagged for a closer look

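The Avicel response differed between 1 h and 4 h, by a test of the difference itself, for 2684 genes (limma, adjusted p under 0.05). The genes below are those with the largest differences of responses, 1 h minus 4 h, on the log2(FPKM + 1) scale.

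The largest positive differences were 7.33 for NCU09695, 7.3 for NCU05627, 5.63 for NCU11944, 5.59 for NCU06128, 5.5 for NCU08473 and 4.86 for NCU09648. NCU05627 stood at 11339, 7058 and 6495 FPKM on Avicel and at 71.6, 13.7 and 13 FPKM on sucrose at 1 h, and at 254, 338 and 90.4 FPKM on Avicel and 49.7, 138 and 126 FPKM on sucrose at 4 h. NCU09648 reached its difference without a change at 1 h that stands out: it was at 63, 64.1 and 55.7 FPKM on Avicel and at 48.6, 88.5 and 76.7 FPKM on sucrose at 1 h, where the groups overlap, and at 16.6, 10.3 and 8.68 FPKM on Avicel and 464, 407 and 359 FPKM on sucrose at 4 h. NCU06128 was listed at 0 in all 3 sucrose libraries at 1 h, so its value depends on the pseudocount.

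The largest negative differences were -12.75 for NCU04870, -11.71 for gh10-1, -10.74 for gh61-4, -10.68 for NCU09416, -9.94 for NCU08785 and -9.81 for NCU04169. Each was at 0 in at least 1 library of either medium at 1 h, so these sizes too depend on the pseudocount. The monooxygenase gene gh61-4 was at 0, 14.3 and 16.5 FPKM on Avicel and at 0 in all 3 sucrose libraries at 1 h. NCU04870 was listed at 0 in all 6 libraries at 1 h and stood at 9399, 5098 and 6862 FPKM on Avicel at 4 h. The xylanase gene gh10-1 was at 0, 1.60 and 5.39 FPKM on Avicel at 1 h, and its 4 h libraries on Avicel gave 30744, 12382 and 16236 FPKM. The difference of NCU04169 did not pass with voom on recovered reads (-10.1, adjusted p = 0.24).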

How the results depend on the processing

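The number of genes called at 1 h was 5348 and ran from 4713, among genes above 0 in all 6 libraries, to 5411 with voom on recovered reads. With the replicate block it was 5188 (3091 higher and 2097 lower), and for the difference of responses 2715; beyond the calls given beside their results the block ended or added no call of a gene named in the report. Leaving out 1 library gave 4831 to 5162 calls at 1 h and 2052 to 2795 in the difference of responses. Without replicate 1 of both media (36 bases at 1 h, 40 at 4 h), the difference of responses passed for 4019 genes, beside 2684. The 1 h response was the higher in 2040 and the lower in 1979, beside 1406 and 1278. The cause was not tested. Of named genes that passed in the reported fit or under quantile normalization, some had opposite signs between them. They were hH4-1 (1.08), eif5A (0.152), fba (1.08), ccg-15 (0.729) and emp-7 (0.172). The change of eas turned negative, and passed, without replicate 1 of both media at 1 h (-2.06) and without sucrose replicate 1 (-2.17). Of its values with 1 library left out, -2.17 was the lowest and 1.48 the highest. The cause of these changes of sign was not tested. Depth was 15.5 M to 59.8 M reads at 1 h and 11.8 M to 46.5 M at 4 h, and 1216 tested genes were at 0 in some library at 1 h, where a fold rests on the pseudocount. FPKM is a relative measure whose scaling between libraries is not given, so total RNA per culture is not measured.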
